A study of Mus musculus with 6 samples.

Results

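Olfactory receptor genes were followed in mouse embryonic stem (ES) cells that lack Mpp8 and Tasor. The members were chosen by their name as olfactory receptors and selected on their counts, which had to sum to 20 or more over the 6 libraries. This gave 90 of the 1417 olfactory receptor genes in a table of 57180 genes. The series holds 3 libraries of Mpp8/Tasor double knockout cells (dKO, titled MPTA in the labels) and 3 libraries of wild-type cells (WT), all from ES cells of the C57BL/6 strain and with no other treatment in the labels. How the knockout was made, how many clones it came from and whether the 3 libraries of a genotype came from separate cultures are not given in the sources used here, so p-values measure only the spread between these libraries. The proteins MPP8, from the gene Mphosph8, and TASOR belong to HUSH (human silencing hub), a complex that keeps long retroelements and some genes silent in chromatin that carries trimethylated lysine 9 of histone H3.

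Olfactory receptors are G protein-coupled receptors that odorants bind. Each mature olfactory sensory neuron usually expresses 1 allele of 1 receptor gene, while the other receptor genes stay in heterochromatin that carries the same histone mark. The genes lie in clusters on many chromosomes. Class I receptors form a single large cluster in the mouse, and class II receptors make up the rest. Their coding part usually lies in 1 exon, behind short noncoding exons that are spliced on from upstream.

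Of the 1417 receptor genes, 1096 were at 0 in each of the 6 libraries, 231 had between 0 and 20 counts, and 90 reached 20. The sum runs over both genotypes, so a gene with reads in 1 genotype alone could reach it, and so could it pass the later filter on low counts. Counts over the members are therefore given as a description, with no test over the members together. Just inside the threshold, Or1o4 and Or6c203 had 20 counts in all and Or52d1 had 22.12. Just outside it, Or2ak4 and Or5k1 had 19 and Or7d12-ps1 had 17. Of these, Or2ak4 had 6, 1 and 12 counts in the dKO libraries and 0 in each WT library, which allows up to 3 counts in each, and Or6c203 had 10, 4 and 4 counts in the dKO libraries, against 1, 1 and 0 in the WT libraries.

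Sequences of 4 members are shown because they stand for strong rises, the most abundant member and the member whose window is almost wholly shared with other genes. They run from 250 bases before the RefSeq gene start to 50 bases after it, on build GRCm38.p6, and are written 5′ to 3′. Capitals mark bases inside a run of 31 bases that also occurs in a GENCODE M21 transcript of a gene that is not an olfactory receptor, on either strand.
Or14j6, chr17:37903298-37903597, plus strand: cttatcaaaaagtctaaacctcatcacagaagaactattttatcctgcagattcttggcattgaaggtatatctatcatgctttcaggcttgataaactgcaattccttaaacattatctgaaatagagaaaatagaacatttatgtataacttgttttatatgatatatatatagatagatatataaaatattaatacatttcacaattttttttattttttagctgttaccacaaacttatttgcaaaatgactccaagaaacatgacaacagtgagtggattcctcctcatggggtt
Or14a260, chr7:86336345-86336644, minus strand: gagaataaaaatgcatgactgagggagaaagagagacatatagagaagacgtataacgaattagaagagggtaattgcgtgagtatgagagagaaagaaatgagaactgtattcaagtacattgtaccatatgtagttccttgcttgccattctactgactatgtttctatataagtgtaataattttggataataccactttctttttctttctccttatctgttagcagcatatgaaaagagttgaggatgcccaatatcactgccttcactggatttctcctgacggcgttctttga
Or2y16, chr11:49443603-49443902, plus strand: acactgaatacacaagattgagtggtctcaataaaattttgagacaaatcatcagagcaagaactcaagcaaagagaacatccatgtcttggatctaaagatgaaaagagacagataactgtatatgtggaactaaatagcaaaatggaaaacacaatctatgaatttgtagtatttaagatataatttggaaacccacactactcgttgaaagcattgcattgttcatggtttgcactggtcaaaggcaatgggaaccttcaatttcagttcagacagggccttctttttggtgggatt
Or51ab3, chr7:103550118-103550417, plus strand: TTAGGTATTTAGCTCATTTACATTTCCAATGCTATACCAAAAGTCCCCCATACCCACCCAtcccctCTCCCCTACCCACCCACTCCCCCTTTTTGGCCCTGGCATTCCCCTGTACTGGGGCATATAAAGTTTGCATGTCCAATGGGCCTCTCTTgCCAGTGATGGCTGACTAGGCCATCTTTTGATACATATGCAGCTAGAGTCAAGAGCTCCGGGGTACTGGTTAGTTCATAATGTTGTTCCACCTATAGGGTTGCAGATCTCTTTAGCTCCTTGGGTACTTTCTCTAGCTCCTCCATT
In the windows of Or14j6, Or14a260 and Or2y16 no base was shared, and the start codon stands right at the RefSeq gene start. The same held for the start codon in 686 of the 948 receptor windows (72.4%), so that most of these windows lie before the coding start rather than at a known start of transcription. Outside its window Or2y16 did share sequence: 24.5% of the distinct 31-base stretches of its transcripts also occurred in genes that are not olfactory receptors. Its estimated counts were not whole numbers in any of the 6 libraries. In the window of Or51ab3, 293 of 300 bases were shared (97.7%), with stretches that occur in up to 71 other genes. Shared bases were found in 2 of the 75 member windows and in 23 of all 948 receptor windows (2.43%). The other 15 members, Or2ak5 among them, had no window in the sequences used.

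Total counts per library ran between 18384815 in WT replicate 1 and 24910554 in WT replicate 2. The targeted genes went with the labels. Mphosph8 had 1, 4 and 3 counts in the dKO libraries, against 2159, 3597 and 2173 in the WT libraries, and Tasor had 180, 196 and 204, against 2631, 4932 and 2567. The 7 ES cell markers, Pou5f1 and Nanog among them, were all tested, and 0 were called by edgeR or DESeq2 or reached an unadjusted p under 0.05. Mitochondrial genes took 2.29% of the counts of WT replicate 2 and 1.34% to 1.63% of those of the other libraries; without WT replicate 2 more members were called, 36, and the part of that library in the results was not tested further. The median log2 change over the 15714 genes tested was -0.016.

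Counts assigned to receptor genes were higher in dKO cells as a sum and in 28 of the tested members. The part of reads from other genes with shared sequence in these counts was not tested. In bulk RNA, more cells with a transcript and more transcript per cell cannot be told apart. Of the 90 members, 51 passed the filter on low counts, and 28 of these rose in dKO cells, 23 were not called and 0 fell (edgeR quasi-likelihood test, called where the p adjusted by Benjamini-Hochberg over the whole table was under 0.05). That is 54.9% of the tested members, where 16.4% of all tested genes were higher and 17.9% were lower. At an unadjusted p under 0.05, 34 members were higher and 1 was lower, and DESeq2 called 29 higher and 0 lower. Among the rises, 19 were at least 2-fold and 7 at least 4-fold, where 7.11% of all tested genes were called higher by at least 2-fold. The median log2 change of the tested members was 0.86. The authors' deposited table has 26 of the 90 members higher at an adjusted p under 0.05 and 0 lower.

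All 3 dKO libraries lay above all 3 WT libraries in CPM (the count as a share of the scaled library) for 34 of the 51 tested members (66.67%, where 24.2% of all tested genes did so), and below them for 1, where 25.0% of all tested genes did so. Each of the 28 called members was among those 34. Over all 90 members, untested ones included, 41 had all dKO libraries above, 2 had them below and 47 overlapped. The mean CPM was higher in dKO for 75 members and lower for 15.

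The largest rises among the 28 called members were in genes with very few counts in WT cells. The count threshold and the low-count filter could each be passed on the reads of either genotype alone. The choice of members thus allowed large folds, in either direction, at low counts in the other genotype, so this pattern is a description only. Or14j6, a class II receptor on chromosome 17, had 183, 178 and 248 estimated counts in the dKO libraries and 2, 5 and 3 in the WT libraries. Its mean was 10.4 ± 2.32 CPM in dKO cells and 0.16 ± 0.047 CPM in WT cells (SD, n = 3 each), a log2 change of 5.93 ± 0.312 (SE, edgeR adjusted p = 2.2e-06). No other member rose as far, and its lowest dKO library stood far above its highest WT library.

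Or2ak5, a class II receptor on chromosome 11, had 165, 136 and 106 counts in the dKO libraries and 1, 7 and 5 in the WT libraries, a log2 change of 4.98 ± 0.374 (SE, edgeR adjusted p = 1.61e-05). Or14a260, a class II receptor on chromosome 7, had 72, 75 and 81 counts in the dKO libraries and 12, 5 and 4 in the WT libraries, a log2 change of 3.44 ± 0.403 (edgeR adjusted p = 0.000237). Its counts were whole numbers in all 6 libraries, as an estimated count is where no read is shared out between genes. Or51s1, a class I receptor on chromosome 7, had 21.2, 25.1 and 31.8 counts in the dKO libraries and 1, 7.31 and 3.97 in the WT libraries, a log2 change of 2.73 ± 0.507 (edgeR adjusted p = 0.003). In these 4 genes the WT libraries held at most 12 counts, and the genotypes did not overlap.

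A second set of receptors already had 6.503 CPM or more assigned to them in each WT library and rose by more than 4-fold. Or51ab3, a class I receptor on chromosome 7, had 46.7, 43.6 and 37.2 CPM in the dKO libraries, against 6.503, 10.6 and 7.46 CPM in the WT libraries, a log2 change of 2.37 ± 0.184 (edgeR adjusted p = 1.98e-05). Or13a18, a class II receptor on chromosome 7, had 75.3, 72.4 and 77.9 CPM in the dKO libraries, against 14.7, 19.3 and 15.5 CPM in the WT libraries, a log2 change of 2.19 ± 0.127 (edgeR adjusted p = 3.64e-06). Or2h2, a class II receptor on chromosome 17, had 34.0, 36.5 and 50.8 CPM in the dKO libraries, against 9.53, 9.51 and 9.55 CPM in the WT libraries, a log2 change of 2.08 ± 0.162 (edgeR adjusted p = 2e-05). In each of these 3 receptors the lowest dKO value stood above the highest WT value. Their estimated counts were not whole numbers in any library. Of their distinct transcript stretches of 31 bases, 6.42%, 36.2% and 15.74% also occurred in genes that are not olfactory receptors.

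**Figure D1:**
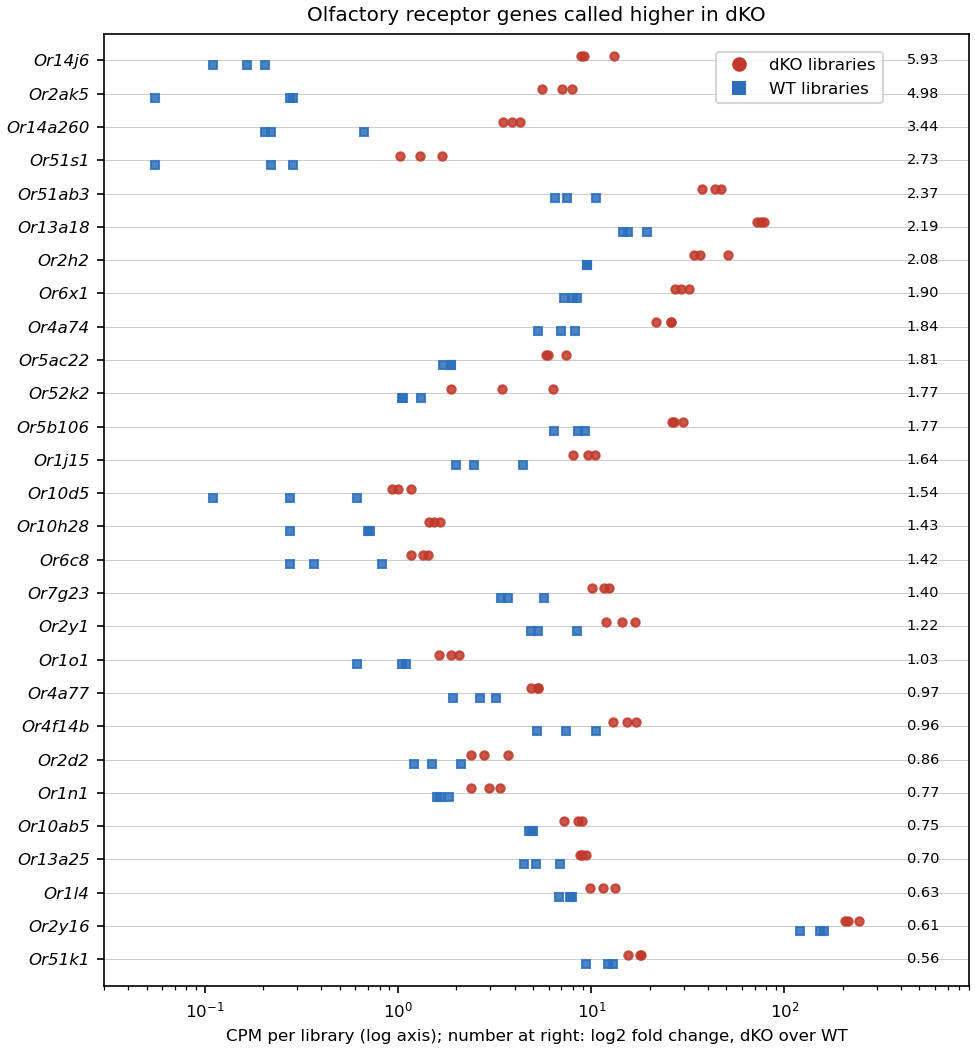
CPM of each of the 28 called receptors in the 3 dKO libraries (circles) and the 3 WT libraries (squares), on a log axis, with the log2 fold change of dKO over WT at the right. The genotypes are apart in every row, from a log2 change of 5.93 for Or14j6 to 0.56 for Or51k1.

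A further 12 receptors rose by at least 2-fold. In Or6x1 the mean was 29.4 ± 2.38 CPM in dKO cells and 7.87 ± 0.598 CPM in WT cells (log2 change 1.90), and in Or5b106 it was 27.6 ± 1.90 CPM in dKO cells and 8.07 ± 1.49 CPM in WT cells (log2 change 1.77). Or4a74 rose by 1.84, Or5ac22 by 1.81, Or52k2 by 1.77, Or1j15 by 1.64, Or10d5 by 1.54, Or10h28 by 1.43, Or6c8 by 1.42, Or7g23 by 1.40, Or2y1 by 1.22 and Or1o1 by 1.03 on the log2 scale. The dKO libraries of Or52k2, a class I receptor, were spread widely, at 1.89, 3.46 and 6.36 CPM, against 1.05, 1.06 and 1.32 CPM in the WT libraries. The WT libraries of Or10d5 held 2, 14.8 and 5 counts, against 24, 18 and 19.1 counts in the dKO libraries, so its fold rests on few reads.

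The other 9 called receptors rose by less than 2-fold. They include Or2y16, the most abundant member, which alone held 36.5% of all member counts. Or2y16, a class II receptor on chromosome 11, had 212, 206 and 244 CPM in the dKO libraries, against 159, 121 and 153 CPM in the WT libraries, a log2 change of 0.61 ± 0.12 (SE, edgeR adjusted p = 0.00394). Its rise was clear of the spread but among the smallest of the called members. Or4a77 rose by 0.97, Or4f14b by 0.96, Or2d2 by 0.86, Or1n1 by 0.77, Or10ab5 by 0.75, Or13a25 by 0.70, Or1l4 by 0.63 and Or51k1 by 0.56 on the log2 scale. Of these, Or2d2 lay nearest the threshold (edgeR adjusted p = 0.0492).

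Of the 28 calls, 18 held in all 11 other settings, which were 2 other scalings, no filter, DESeq2, the replicate block and leaving out each library in turn. Or14j6, Or2ak5, Or14a260, Or51s1, Or51ab3, Or13a18, Or2h2 and Or2y16 were among the 18. The other 10 lost the call in at least 1 setting and kept their direction. Or4f14b lost it without WT replicate 1 (edgeR adjusted p = 0.0542) and Or1l4 without dKO replicate 2 (0.0717). Or10h28 lost it whichever dKO library was left out (adjusted p up to 0.0714). Or51k1 lost it without dKO replicate 1, dKO replicate 2 or WT replicate 1 (up to 0.0781), and Or13a25 without dKO replicate 1, dKO replicate 3 or WT replicate 1 (up to 0.0552). Or2d2 (adjusted p up to 0.193), Or10d5 (up to 0.14), Or1o1 (up to 0.125) and Or6c8 (up to 0.0949) lost it whichever dKO library was left out and also without 2 of the WT libraries, which were WT replicates 1 and 3 for Or2d2 and Or10d5, 1 and 2 for Or1o1, and 2 and 3 for Or6c8. Or1n1 lost it without the filter and without dKO replicate 1, dKO replicate 3, WT replicate 1 or WT replicate 3 (up to 0.125).

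Of the 23 tested members that were not called, 19 had a log2 difference above 0, and Or2y7, Or8b48, Or7d10 and Or5m11 had one below 0. Their summed level was 58.9 ± 2.36 CPM in dKO cells and 43.8 ± 9.48 CPM in WT cells (SD, n = 3 each). Or6z3, the most abundant of them, had 13.2, 13.9 and 10.6 CPM in the dKO libraries, against 10.3, 9.06 and 9.11 CPM in the WT libraries, a log2 difference of 0.41 (edgeR adjusted p = 0.0616), with the genotypes just apart. Or10ah1-ps1 had 6.14, 4.29 and 6.36 CPM in the dKO libraries, against 3.47, 7.63 and 5.10 CPM in the WT libraries, a log2 difference of 0.04 (edgeR adjusted p = 0.929), and the genotypes overlapped. Among the abundant members, Or5w19 (log2 difference 0.58) and Or51q1 (0.53) likewise overlapped between the genotypes and were not called. Without WT replicate 2, however, Or5w19 (edgeR adjusted p = 0.00588) and Or51q1 (0.00391) were called higher, and so was Or5w19 with the replicate block (0.0216). Or6z3 was called higher on library totals (edgeR adjusted p = 0.0395), with the replicate block (0.0347) and without dKO replicate 3 (0.0406). In all, 9 of the 23 were called in at least 1 of the 11 other settings and 14 in none. Or2y7, which GENCODE M21 lists as a transcribed pseudogene, was the only tested member with every dKO library below every WT library, at 0.435, 0.671 and 0.21 CPM in the dKO libraries, against 0.937, 1.10 and 0.878 CPM in the WT libraries. Its log2 difference was -1.14 (edgeR adjusted p = 0.0761).

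The 39 untested members had 20 to 69.8 counts each over the 6 libraries. Together they had 14.99, 14.6 and 13.2 CPM in the dKO libraries, against 8.54, 12.4 and 6.91 CPM in the WT libraries. The mean was higher in dKO for 27 of them and lower for 12. A fit without the filter called 31 members higher and 0 lower, where 10.1% of its genes were higher. Of these 31, 3 were members that had not passed the filter, Or11g7, Or4a66 and Or4d11. Or4a66 had 14, 2 and 22 counts in the dKO libraries, against 2, 3 and 0 in the WT libraries, so its libraries overlapped.

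**Figure D2:**
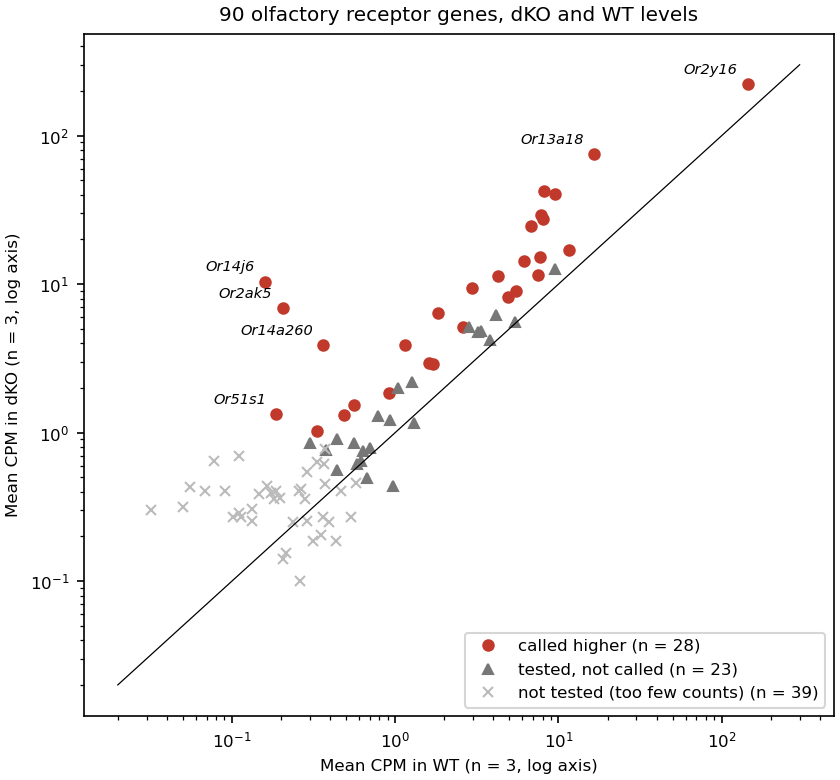
Mean CPM of each of the 90 receptors in dKO cells (vertical) against WT cells (horizontal), both on log axes with n = 3, by call; the line marks equal levels. Or14j6, Or2ak5, Or14a260 and Or51s1 lie far above the line at WT means under 0.4 CPM, and Or2y16 lies highest on both axes.

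Per length, the order of the receptors differed between the genotypes. Or2y16 had the highest TPM (the authors' level per transcript length) in both, at 122 ± 2.14 TPM in dKO cells and 76.3 ± 7.43 TPM in WT cells. Or2h2 came next in both, at 23.7 ± 2.71 TPM in dKO cells and 5.50 ± 0.906 TPM in WT cells. Or13a18, Or6x1 and Or51ab3 followed in dKO cells at 15.4 ± 1.23, 14.8 ± 0.592 and 13.5 ± 2.80 TPM, closer to each other than their spread. Or14j6 ranked 9 of 90 in dKO cells, at 4.52 ± 0.501 TPM, and 74 of 90 in WT cells, at 0.07 ± 0.026 TPM. Or2ak5 ranked 13 in dKO cells and 69 in WT cells, and Or14a260 ranked 16 in dKO cells and 44 in WT cells. The transcript length behind each TPM value was not stated in the labels or file headers.

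As a sum, the 90 members had 661, 660 and 717 CPM in the dKO libraries, against 316, 323 and 312 CPM in the WT libraries. The mean was 679 ± 32.7 CPM in dKO cells and 317 ± 5.42 CPM in WT cells (SD, n = 3 each), a ratio of 2.14. The 3 libraries of each genotype lay close together and the genotypes did not overlap. With 3 libraries on each side an exact permutation test cannot reach 0.05, and none was run on the sum. Receptor counts were 0.0679%, 0.0677% and 0.0722% of all counts in the dKO libraries, and 0.0312%, 0.0318% and 0.03% in the WT libraries.

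The sum depended on which members it held. Without Or2y16 it was 458 ± 12.5 CPM in dKO cells and 173 ± 25.4 CPM in WT cells, a ratio of 2.65. The 28 called members, picked for their rise in these same libraries, held 606 ± 35.2 CPM in dKO cells and 264 ± 6.95 CPM in WT cells. The 9 class I members, of which 6 were tested and 4 rose, had 74.8 ± 4.65 CPM in dKO cells and 28.9 ± 5.34 CPM in WT cells. The 81 class II members, of which 45 were tested and 24 rose, had 604 ± 36.9 CPM in dKO cells and 288 ± 3.81 CPM in WT cells. Over all tested genes 16.4% were higher. In both classes all dKO libraries lay above all WT libraries, and a difference between the classes was not tested.

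**Figure D3:**
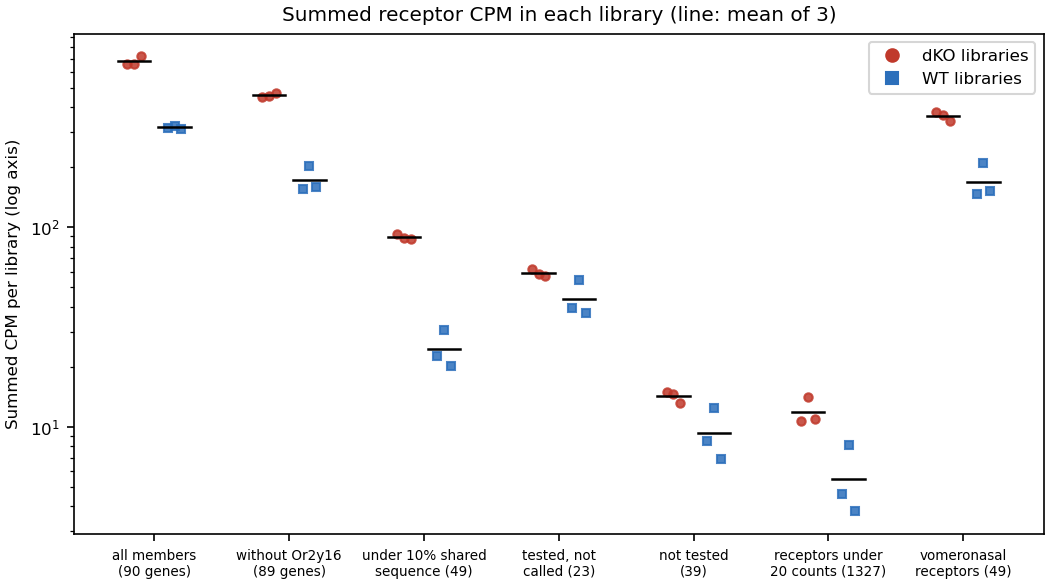
Summed CPM in each library on a log axis for sets of receptor genes, dKO (circles) left of WT (squares), with a line at the mean of 3 libraries; the number of genes is given under each set. The dKO libraries lie above the WT libraries in every set, at 661, 660 and 717 CPM against 316, 323 and 312 CPM over all 90 members.

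The members shared more transcript sequence with other genes than the receptor genes below the threshold did, given here as a description. In GENCODE M21, a median of 9.39% of the distinct 31-base stretches of a member's transcripts also occurred in genes that are not olfactory receptors, and 41 of the 90 members had 10% or more. Among the other receptor genes the median was 0 (n = 1326) and 25 had 10% or more. The shared stretches lay mostly outside the coding part. Of the 89 members with a coding part, 84 had none in it, while the noncoding part had a median of 10.8%. These values leave out sharing with other receptor genes, which had a median of 11.03% in the members and 6.985% in the other receptor genes. The longest transcript of a member had a median of 5146 bases and its 3′ untranslated part a median of 3234 bases, against 2399 and 998 bases in the other receptor genes. The coding part had a median of 936 bases in both. In M21, 88 of the 90 members had more than 1 exon in at least 1 transcript. The members were chosen by counts, and the part of transcript length and shared sequence in that choice was not tested.

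Estimated counts are not whole where reads are shared out between genes. Of the members' values above 0, 75.95% were not whole numbers within 0.005, against 26.65% over all tested genes. In 47 members no library had a whole count, and 23 of the 39 tested among them rose, where 16.4% of all tested genes were higher. In 12 members every library had a whole count, and 1 of the 4 tested among them rose, Or14a260.

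Split at 10% of sequence shared with genes other than olfactory receptors, the summed dKO libraries lay above the WT libraries on both sides. The 49 members below 10% held 11.5% of the counts, and 7 of the 17 tested among them rose, where 16.4% of all tested genes were higher. They had 92.6, 88.4 and 87.0 CPM in the dKO libraries, against 22.8, 30.6 and 20.3 CPM in the WT libraries, a ratio of 3.64. The 41 members at 10% or more held 88.5% of the counts, and 21 of the 34 tested among them rose. They had 590 ± 34.7 CPM in dKO cells and 292 ± 0.466 CPM in WT cells, a ratio of 2.02. The median log2 change was 1.00 in the tested members below 10% and 0.86 in those at 10% or more. The 12 members with whole counts in every library had 9.09, 8.52 and 10.6 CPM in the dKO libraries, against 3.75, 4.12 and 3.29 CPM in the WT libraries, a ratio of 2.52. Or51ab3 is among the members below 10%, at 6.42% of its transcript sequence, though its window is almost wholly shared and its counts were not whole in any library. Without it, the others below 10% had 45.9, 44.7 and 49.8 CPM in the dKO libraries, against 16.3, 20.1 and 12.8 CPM in the WT libraries, a ratio of 2.86. The part of reads from other genes with the shared sequence was not tested in any of these sets.

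**Figure D4:**
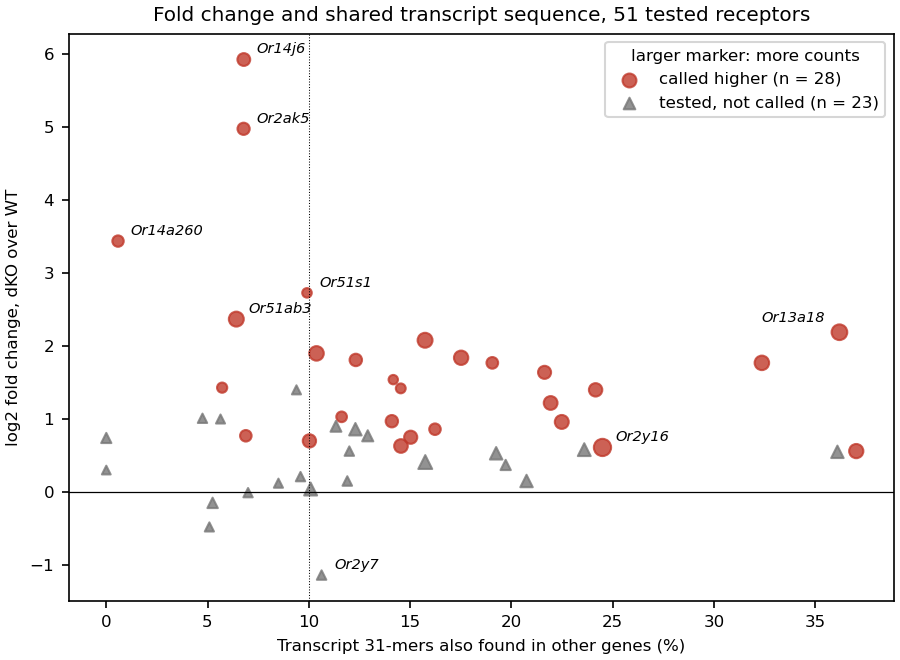
Log2 fold change of dKO over WT for the 51 tested receptors (vertical) against the percent of their transcript 31-mers that also occur in genes other than olfactory receptors (horizontal); marker size grows with counts and the dotted line marks 10%. The 4 largest rises, Or14j6, Or2ak5, Or14a260 and Or51s1, lie below 10%, at 6.79%, 6.78%, 0.58% and 9.91%. Sharing with other receptor genes is not on this axis, and was 16.6%, 23.05%, 0.98% and 7.16% in the same 4 genes. Or2y7, with the lowest log2 change at -1.14, was not called.

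Most neighbours of the called members had few reads or none. By the order of genes in GENCODE M21, the nearest genes other than receptors on either side of the 28 called members fill 56 places, some of them with the same gene. Of these places 49 had under 20 counts and 38 had 0. For 22 of the 28 members both sides were under 20 counts. Of the 7 places with a tested neighbour 1 rose and 1 fell, where 16.4% of all tested genes were higher and 17.9% were lower. Fam183b, next to Or2ak5, had 66, 49 and 85 counts in the dKO libraries, against 30, 25 and 41 in the WT libraries (log2 change 1.06, edgeR adjusted p = 0.0372). That call was lost without dKO replicate 1, dKO replicate 3, WT replicate 1 or WT replicate 2 (adjusted p up to 0.142). Gabbr1, a subunit of the GABA-B receptor next to Or2h2, had 1827, 1740 and 1490 counts in the dKO libraries, against 2061, 3141 and 2080 in the WT libraries (log2 change -0.47, edgeR adjusted p = 0.00463), the opposite direction to Or2h2. The other tested neighbours were not called: Zfp202 (-0.57) next to Or6x1, Nlrp14 (1.14) next to Or2d2, H2-M3 (0.10) next to Or1o1, and Zfp955a (0.09) and Zfp955b (-0.21) next to Or10h28.

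The nearest receptor genes had few reads too. Of 55 such places 49 had under 20 counts and 40 had 0. Most receptor genes are like this: of all 1417, 1327 had under 20 counts and 1096 had 0. Both receptors beside Or14j6, Or14j5 and Or14j7, had 0 counts in all 6 libraries, and so had Or6f1 and Or14o1-ps1 beside Or14a260. Of the 5 tested places 2 were called higher, where 16.4% of all tested genes were higher. They belong to Or2h2 and Or10h28 on chromosome 17, each the nearest receptor of the other in a single direction. Zfp955b and Gabbr1 lie between them. In the other direction, Or2h1 beside Or2h2 was not called (log2 difference 0.74, edgeR adjusted p = 0.237). Or10h5, beside Or10h28, had 58 counts and was not tested. Another gene overlaps 11 of the members, and none of those genes had 20 or more counts.

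Members lay on 14 of the 19 chromosomes that carry receptor genes of the table. Chromosome 2 held 22 members of its 374 receptor genes, and 6 of its 12 tested members were called higher. Chromosome 7 held 19 of 294, with 9 of 13 tested members called. Chromosome 9 held 13 of 175, with 3 of 7 called, and chromosome 17 held 7 of 63, with 4 of 5 called. Chromosome 14 carries Mphosph8 and Tasor. Of its 525 tested genes 370 were called lower and 32 higher, where 17.9% of all tested genes were lower and 16.4% were higher. Its 3 members, Or4q3, Or11g7 and Or2t1, had 2.22, 1.55 and 1.63 CPM together in the dKO libraries, against 1.05, 1.43 and 0.384 CPM in the WT libraries. Of the 3, only Or4q3 passed the filter, and it was not called (log2 difference 0.56). Without the filter, Or11g7 was called higher (log2 change 2.58, edgeR adjusted p = 0.00754) and Or2t1 was not called.

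Genes that work with receptors in olfactory neurons, or that silence them there, were followed in 4 lists. Over their 51 genes, 3 rose, 9 fell, 24 were not called and 15 were not tested, where 16.4% of all tested genes were higher and 17.9% were lower. On library totals 5 were higher and 6 lower. Without WT replicate 2 the counts were 9 higher and 15 lower, and without dKO replicate 1 they were 2 higher and 4 lower. In the list of 18 transduction genes, Pde1c, a phosphodiesterase that breaks down cyclic nucleotides, had 77, 66 and 63 counts in the dKO libraries, against 12, 17 and 10 in the WT libraries (log2 change 2.44, edgeR adjusted p = 0.000124). The arrestin gene Arrb2 rose by 0.30 on the log2 scale, a call lost without the filter, without WT replicate 3 and whichever dKO library was left out (adjusted p up to 0.191). Gnas and Gnb1, which encode G protein subunits of wide use, changed by -0.55 and -0.34, and the call of Gnb1 was lost without dKO replicate 1 (adjusted p = 0.0522). Of 6 export genes, whose products help receptors to the cell surface, Reep1 had 54, 42 and 57 counts in the dKO libraries, against 164, 299 and 173 in the WT libraries (log2 change -1.98, edgeR adjusted p = 8.63e-05), and 4 were not tested.

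Genes of the neuron lineage and of receptor choice, 16 in all, had 1 rise and 1 fall. Bptf, a subunit of the NURF chromatin remodeller, changed by 0.52, and Ebf4, a transcription factor of the family that binds receptor promoters, had 7, 7 and 9 counts in the dKO libraries, against 44, 62 and 37 in the WT libraries (log2 change -2.56, edgeR adjusted p = 0.000359). Lhx2, which binds receptor enhancers in olfactory neurons, had 15, 10 and 10 counts in the dKO libraries, against 25, 18 and 27 in the WT libraries, and was not called (log2 difference -0.99), except without WT replicate 2 (edgeR adjusted p = 0.0297). Of the 11 genes of the heterochromatin list, 0 rose, 5 fell and 6 were not called in edgeR, beside the same 16.4% higher and 17.9% lower over all tested genes. DESeq2 also called 0 higher and 5 lower, and at an unadjusted p under 0.05 there were 0 higher and 6 lower. Atrx, a chromatin remodeller, changed by -0.93, Trim28, the corepressor KAP1, by -0.37, Suv39h1, a methyltransferase for lysine 9 of histone H3, by -0.34, and Cbx5, which encodes HP1 alpha, by -0.30. On library totals the calls of Suv39h1 and Cbx5 were lost, as they were whichever dKO library was left out (adjusted p up to 0.14). Suv39h1 also lost it without the filter or WT replicate 1, and Trim28 without dKO replicate 1 (adjusted p = 0.0563).

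Markers of other cell types were measured in the same libraries, where 16.4% of all tested genes were called higher and 17.9% lower. Of the 7 olfactory neuron markers 3 were tested and 0 were called by edgeR or DESeq2 or reached an unadjusted p under 0.05, and their summed level was 33.7 to 39 CPM in dKO cells and 33.0 to 40.5 CPM in WT cells. Most of that was Adcy3, the adenylate cyclase of olfactory neurons, with 31.1 ± 1.92 CPM in dKO cells and 31.5 ± 3.57 CPM in WT cells. Cnga2, the channel subunit that defines mature olfactory neurons, had 0 counts in all 6 libraries. Omp, the marker protein of mature olfactory neurons, had 10, 13 and 14 counts in the dKO libraries, against 8, 18 and 8 in the WT libraries. Rtp1 had 1, 0 and 0 counts in dKO and 5, 1 and 0 in WT, and Stoml3 had 3, 3 and 1 in dKO and 0, 1 and 3 in WT. Gnal, the G protein alpha subunit of these neurons, was not called (log2 difference 0.20). The 3 sustentacular markers had 0 counts in dKO and up to 0.0816 CPM in WT. Of 7 testis germ cell markers, Prm1 and Prm2 were at 0, Ddx4 was lower in dKO (log2 change -2.09) and Sycp3 was not called (log2 difference -0.05). The list summed to 16.4 to 17.2 CPM in dKO cells and 47.5 to 58.8 CPM in WT cells. Most of that was Ddx4, with 11.0 ± 0.547 CPM in dKO cells and 46.9 ± 4.85 CPM in WT cells. Of 7 fibroblast or feeder markers, Col1a2, Postn and Dcn were higher in dKO, Col1a1, Col3a1 and Thy1 were not called, and Lum was not tested. The list summed to 42.0 to 44.9 CPM in dKO cells and 27.9 to 38.7 CPM in WT cells. The part of these markers in the receptor result was not tested.

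Vomeronasal receptors, which detect pheromones, were the other large chemoreceptor family with reads. Of 358 Vmn1r and Vmn2r genes 49 reached 20 counts and 31 were tested, of which 15 rose and 0 fell (0 also at an unadjusted p under 0.05 and in DESeq2), with a median log2 change of 0.81. Over all tested genes 16.4% were higher and 17.9% were lower. Without dKO replicate 1, 9 of the chemoreceptors outside the olfactory receptors rose. The vomeronasal receptors summed to 376, 367 and 340 CPM in the dKO libraries, against 147, 210 and 152 CPM in the WT libraries. The ratio was 2.14 for the olfactory receptors and 2.13 for the vomeronasal receptors, and a difference between the families was not tested. Of 43 taste receptor genes 1 reached 20 counts and was not called, and 0 of 16 trace amine-associated and 0 of 8 formyl peptide receptor genes reached it.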

How the data were processed

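RNA of mouse ES cells was measured in 3 dKO and 3 WT libraries. Per the labels' protocols, Trizol RNA went into an Illumina TruSeq kit. The tools in the submitters' processing notes are HISAT2 2.1.0, DESeq 1.26.0, RSEM and FastQC, with the build GRCm39 and no roles. Strand handling was not given in the sources used here. Per the file headers, the authors deposited expected counts, which are estimated and need not be whole, and TPM per library and genotype. The deposited table adds the authors' own fold (a ratio of MPTA over WT), log2 value, p-value and adjusted p-value.

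Expected counts were rounded and tested with edgeR 4.0.16 in R 4.3.3 (filterByExpr by genotype, TMM, robust quasi-likelihood fit, genotype only) with Benjamini-Hochberg adjustment over 15714 genes, called under 0.05. The common biological coefficient of variation was 0.156. The SE is the size of the log2 change over the square root of F. CPM values carry the TMM factors. A count of 0 allows up to 3 counts, 0.12 to 0.163 CPM by library, for counting error only. Values of near-identical or antisense genes are uncertain. The sums have no test.

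Chromosome, exons and gene order came from GENCODE M21, matched by Ensembl identifier for 90 of 90 members; it is on GRCm38, so it gave no coordinates. Windows are RefSeq sequences. Alternatives were DESeq2 1.42.0, other scalings, no filter, other count thresholds, the replicate block and leaving out each library. Sums used pandas 2.3.3 and NumPy 2.4.6 in Python 3.11.15, and plots matplotlib 3.10.9. The calling step was tested on simulated data.

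The members, lists and tests were chosen with earlier results of these data known. Named by rule were every called member, the 20 members with most counts, 3 genes on either side of the threshold, up to 4 called genes with the smallest p per pathway list, mature neuron markers, the nearest neighbours other than receptors of called members, Mphosph8 and Tasor. Or2y7, Or8b48, Or7d10, Or5m11, members of chromosome 14, untested members called without the filter, receptor neighbours, Lhx2 and the other markers were named after their values were seen.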

Additional observations from a re-analysis of the deposited data

How the results depend on the processing

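Over all tested genes, 5391 were called, 5355 to 5779 under the other scalings, no filter and DESeq2, and 3586 to 6828 when 1 library was left out, lowest without dKO replicate 1 and highest without WT replicate 2. Members called higher numbered 28, against 29 to 31 under other scalings, no filter and DESeq2, and 20 to 36 when 1 library was left out (36 without WT replicate 2); members called lower were 0 in every setting run. Of the members with under 10% shared sequence 7 were called, and of those with whole counts 1; both splits, and leaving out Or51ab3, were chosen after seeing the data, and the splits leave fewer members by construction. The log2 ratio of the sum was 1.10, 1.06 to 1.12 with 1 library left out, 1.16 on library totals, 1.42 without Or2y16, 1.88 with under 10% shared sequence, 1.54 for those without Or51ab3, 1.34 with whole counts and 0.486 without the members called higher. Of the 51 pathway genes 3 were higher, 5 with DESeq2 size factors, 5 on library totals, 6 with the replicate block and 2 to 9 with 1 library left out, and 9 were lower, 8 with DESeq2 size factors, 6 on library totals, 12 without the filter, 12 with the replicate block and 4 to 15 with 1 library left out. Vomeronasal and other chemoreceptors called higher numbered 15, 9 to 18 with 1 library left out. Whether the replicate numbers pair the libraries is not stated in the labels. Correlations between libraries cannot decide it, as they were taken over deviations from a mean of only 3 libraries. For same-numbered libraries they were -0.076, 0.273 and 0.329. The dKO replicates 2 and 3 correlated best with the WT library of the same number, and dKO replicate 1 with WT replicate 2 (0.215). With the replicate block 6794 genes and 32 members were called. Uncalled values near 0 changed sign: Or10ah1-ps1 ran from -0.19 to 0.39 and H2-M3 from -0.13 to 0.45 with 1 library left out, Gnal was -0.01 without WT replicate 3, and Adcy3 was 0.04 on library totals and -0.1 to 0.07 with 1 library left out. For members under about 1 CPM depth limits what could be called. The cause of these differences was not tested.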

Other observations

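The 1327 receptor genes under 20 counts were not members. Together they had 10.7, 14.1 and 11.0 CPM in the dKO libraries, against 4.63, 8.12 and 3.79 CPM in the WT libraries, a mean of 11.9 ± 1.87 CPM in dKO cells and 5.51 ± 2.30 CPM in WT cells (SD, n = 3 each). The dKO libraries all lay above the WT libraries, and WT replicate 2 was the highest of the WT libraries. No gene of this set was tested alone.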
